A study of Mus musculus with 22 samples.

Results

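The forced expression of Blimp-1 in mouse embryonic stem cells (ESCs) is described from 1 array of EBRTcH3 ESCs carrying a Blimp-IRES-GFP construct and 1 array of EBRTcH3 ESCs carrying the IRES-GFP construct without Blimp-1. These are 2 of the 22 arrays of a study of how primordial germ cells (PGCs) acquire pluripotency, and they were chosen by their labels alone. In both constructs the insert is named after EF1a, a constitutive promoter, and an internal ribosome entry site (IRES) gives GFP from the same transcript. Both samples were GFP-positive cells taken on day 2, grown with LIF and a serum replacement, and the 2 arrays lay on 1 slide. The range around them comes from the other EBRTcH3 arrays, which hold cells with forced Prdm14, Vasa, Nanos2, Nanos3 or Dnd and the parental line without a construct, each measured with 1 array. The labels give no day for those 6 arrays and do not say whether any construct line is a single clone. All 8 EBRTcH3 arrays thus share the ESC line, and the 6 others lay on 2 further slides.

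Blimp-1, encoded by Prdm1, is a zinc finger repressor of the PR domain family. It drives the exit of B cells into plasma cells, where it silences genes such as Myc, Ciita and Pax5, and in the mouse embryo it is needed to set apart PGCs from the epiblast, where it works beside Prdm14 and Tfap2c to silence somatic genes. It also acts in the placenta, where trophoblast cell types depend on it. It recognises DNA sites built around GAAAG and recruits cofactors such as the arginine methyltransferase Prmt5, histone deacetylases and Groucho-family (Tle) proteins.

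A level below is log2 of the background-subtracted intensity minus log2 of the 75th percentile of the array, so a level of 0 is the brightness of the spot at that percentile. A gene that the scanner software did not call well above background on 1 of the 2 arrays has only a bound there. The fold printed for it is then a lower limit under this background subtraction, marked by the words "at least". With normexp, another background correction, some of these folds fell below the printed limit. With 1 array a side there is no replicate check, and a difference between the 2 arrays is a description. The spread comes from the other EBRTcH3 arrays, which carried other constructs or none. The 75th percentile lay at an intensity of 195 on the Blimp-1 array and 408 on the GFP array, and 54.1% and 59.2% of the probes were well above background there.

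The forced gene itself could not be checked on this array design. Its 1 probe, at chr10:44157291-44157350 on the minus strand (mm9), holds a stop codon in all 3 reading frames, so it is not wholly coding and need not read a construct that carries the coding sequence. Its level was -1.38 on the Blimp-1 array and -0.17 on the GFP array, against -1.46 to 0.65 on the 6 others. Prdm1 transcript at this probe was thus 1.21 lower on the log2 scale beside GFP and lay within the range of the other arrays. The comparison below therefore rests on the label of the construct. Prdm14 was not found by name on the array and is not analysed here.

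The cells kept the defining ESC transcripts. All 7 of the measured ESC markers were well above background on both arrays. Pou5f1, the central pluripotency factor, stood at 5.42 with Blimp-1 and 5.72 with GFP, and Sox2 at 3.76 and 3.93. The median of the 7 markers was 0.66 lower on the log2 scale with Blimp-1 (median difference -0.66), and Nanog and Tdgf1 were at least 2-fold lower. Markers of other cells were dim in part: 5 of 12 fibroblast, 8 of 13 blood and 3 of 9 endothelial markers were not well above background on either array. Of 12 fibroblast markers 7 could be compared and 1 was at least 2-fold higher, the limb and mesenchyme factor gene Prrx1 at 0.22 against -1.17. Another detected probe of Prrx1 differed by 4.70, so the size of its difference depends on the probe. The summed level of the fibroblast markers was 1.46 with Blimp-1 and 1.18 with GFP. The defining collagen and matrix genes Col3a1, Dcn, Lum and Postn were not well above background on either array. Of 13 blood markers 5 could be compared, with summed levels of 2.13 and 2.42. The myeloid integrin gene Itgam was at least 13.0-fold higher, or 3.79-fold with normexp background correction. The pan-leukocyte gene Ptprc and the erythroid genes Hbb-y, Hba-x and Alas2 were not well above background on either array. Of 9 endothelial markers 6 could be compared, with summed levels of 1.680 and 1.504. Flt1, a receptor for vascular growth factors, was at least 2.51-fold higher, or 1.94-fold with normexp background correction. Cdh5, Tie1 and Emcn were dim on both arrays.

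Across the array, 16527 genes could be compared. With Blimp-1, 1893 were at least 2-fold higher (11.45% of those compared) and 696 at least 2-fold lower (4.21%), 15.7% in all, and 599 of these differences were bounds. The median difference over all genes was 0.01. Differences of this size were common between EBRTcH3 arrays of 1 slide: the 6 other same-slide pairs had 1328 to 4595 genes at least 2-fold apart, against 2589 between Blimp-1 and GFP. The Blimp-1 pair was more lopsided than these: 73.1% of its 2-fold genes were on 1 side, the higher one, against 50.3% to 66% on the larger side of the other pairs. After quantile normalization the split was nearly even, with 1455 higher and 1099 lower (57% higher).

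**Figure D1:**
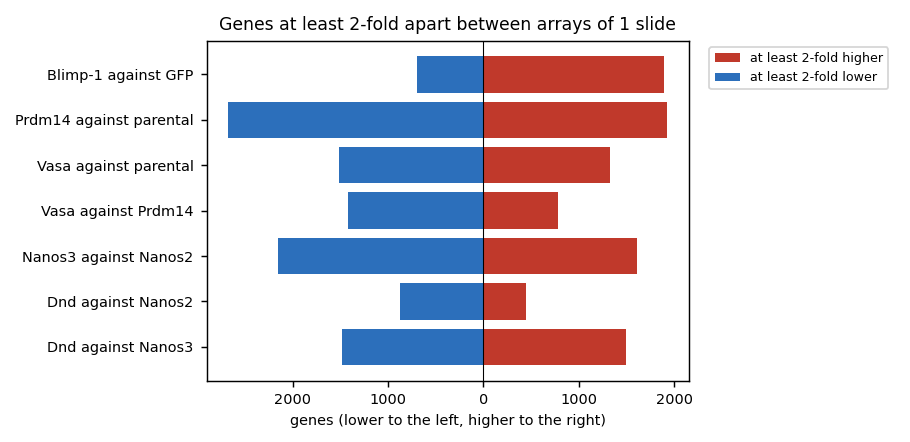
Number of genes at least 2-fold higher (red, to the right) and lower (blue, to the left) for each pair of EBRTcH3 arrays that shared a slide, 1 array a side. Blimp-1 against GFP (1893 higher, 696 lower) lies inside the range of totals of the other 6 pairs, 1328 to 4595.

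Much of the excess of higher genes lay at low levels. Among genes well above background on both arrays, the median difference was 0.74 where the mean level was -3 or less (1068 genes), 0.33 from -3 to -2 (1777 genes) and 0.18 from -2 to -1 (1722 genes). From -1 to 4 it lay between -0.08 and 0.01. Of the 9763 genes with a mean level of at least -1, 487 were at least 2-fold higher and 422 lower. The Blimp-1 array was the dimmer of the pair, and what its brightness adds to weak signals was not tested. Differences of low-level genes are therefore read below against this shift.

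**Figure D2:**
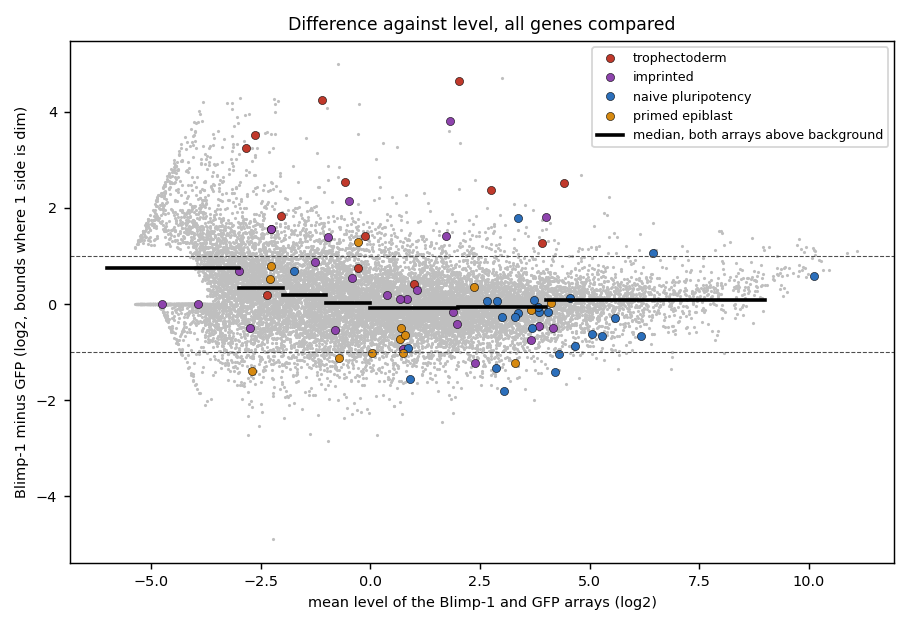
Blimp-1 minus GFP difference (log2, vertical axis) against the mean level on the 2 arrays (horizontal axis) for the 16527 genes compared, with 4 gene lists in colour, dashed lines at 2-fold and black bars at the median of genes above background on both arrays. The black bars stand at 0.74 at the lowest levels and near 0 above a mean level of -1, and the trophectoderm genes (red) lie above 0.

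Of the genes at least 2-fold higher than GFP, 1132 (6.85%) were also above all 7 other EBRTcH3 arrays, and of those lower, 140 (0.847%) were below all 7, 7.7% in all. Of the 140, 20 were not well above background on the Blimp-1 array, so their place below the others rests on a dim reading. Differences larger than every other same-slide difference of the same gene were found for 1436 genes (8.69%), with 1181 higher (7.15%) and 255 lower (1.54%). When limma was fitted over the 8 arrays with slide as a block, no gene of 18813 passed an adjusted p of 0.05 (0%). At an unadjusted p under 0.05 there were 899, and the smallest limma adjusted p was 0.169. The count rests on the scaling and the block: limma passed 151 genes after quantile normalization and 154 with no slide block. No gene named below passed this test, and "higher" and "lower" are used of the 2 arrays alone.

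The gene group that stood furthest from GFP was that of the trophectoderm, the outer layer of the blastocyst that makes the placenta. Of its 17 genes 14 could be compared; 11 were at least 2-fold higher with Blimp-1 and 0 lower, against 11.45% higher among all genes, and all 14 differences were above 0. Their median difference was 2.10, against 0.01 over all genes. All members are given here, also those past the 4 that the naming rule takes. In RNA from many cells, a few cells with much of a transcript and many cells with a little of it cannot be told apart.

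Gata2, a zinc finger factor of trophoblast and blood precursors, was at 1.01 with Blimp-1 and -3.23 with GFP, and at -5.62 to -2.55 on the 6 others. No other EBRTcH3 array came near the Blimp-1 value. The difference of 4.23 is 18.8-fold, with a limma standard error of 1.28 and a limma adjusted p of 0.682. The probe lies at chr6:88156362-88156421 (mm9), and another probe of the gene differed by 4.30.

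Krt7, a keratin of simple and placental epithelia, was at 4.35 with Blimp-1 and -0.29 with GFP, and at -3.38 to 1.99 on the others. Among the 12 genes named as highest only the probe of the hormone gene Sct was brighter on the Blimp-1 array. Brightness of different probes does not rank their transcripts. The difference of 4.63 is 24.8-fold (limma SE 2.39, limma adjusted p 1.00), and another probe differed by 4.11. The keratin pair of simple epithelium was also higher: Krt8 was at 3.94 with Blimp-1 and 1.56 with GFP, and Krt18 at 5.68 and 3.16. For these 2 keratins the Nanos3 array was higher still, at 6.26 and 7.24.

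Hand1, a helix-loop-helix factor that trophoblast giant cells need, was at -0.86 with Blimp-1 and -4.38 with GFP. Cdx2, the factor that sets trophectoderm apart from the inner cell mass, was at -1.23 and -4.46, a 9.42-fold difference. With normexp background correction Hand1 was 3.59-fold and Cdx2 3.35-fold higher. On the other arrays Cdx2 lay between -5.76 and -4.30 except for Nanos3 at 0.61, so the Blimp-1 array was above 6 of the 7. Esx1, a homeobox gene of the placenta, was at 0.70 with Blimp-1 and -1.84 with GFP, and Gata3, a partner of Cdx2, at -1.12 and -2.94. Both were above all 7 other arrays.

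Ascl2, which trophoblast progenitors need, was at -1.49 with Blimp-1 and -3.05 with GFP. Tfap2c, which serves both trophoblast and PGCs, was at 4.54 and 3.29, and above all 7 other arrays. Cited1, a transcriptional coactivator of placenta, was at 0.59 and -0.84. Those 3 completed the 11. Tead4, which acts upstream of Cdx2, differed by 0.76, Plet1 by 0.42 and Tfap2a by 0.18, and these 3 were less than 2-fold apart. Elf5, which trophoblast stem cells need, and the placental homeobox gene Dlx3 were not well above background on either array.

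**Figure D3:**
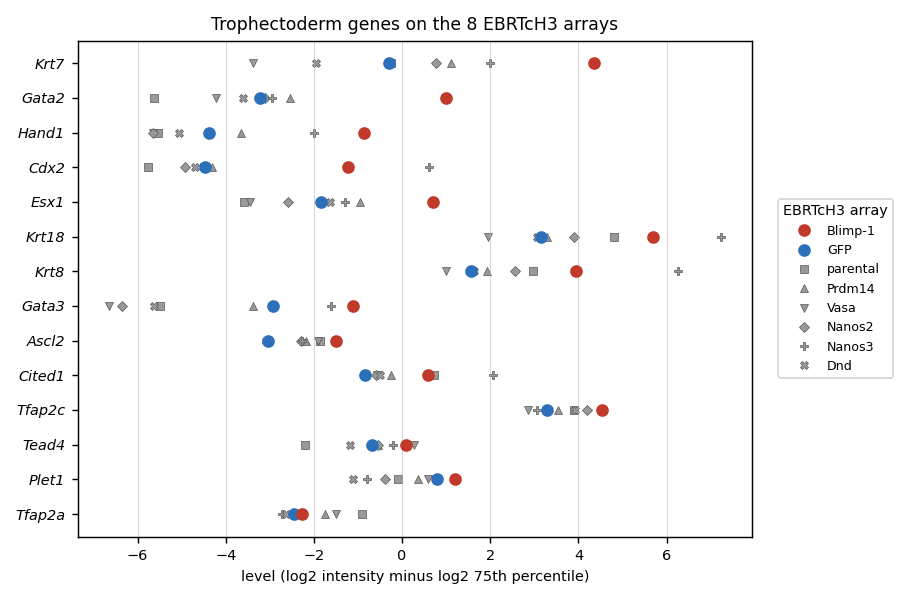
Level (log2, horizontal axis) of the 14 measured trophectoderm genes on the Blimp-1 array (red), the GFP array (blue) and the 6 other EBRTcH3 arrays (grey, marker by array). Every red point lies to the right of its blue point, and for Cdx2, Krt8, Krt18 and Cited1 the Nanos3 array lies further right.

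The same list was set against the other same-slide pairs. Nanos3 against Nanos2 had 8 of 14 trophectoderm genes at least 2-fold higher and 1 lower, with a median of 1.26. The 5 remaining pairs had 0 to 3 higher and medians of -1.76 to 0.00. The root mean square of the 6 medians was 0.98, against 2.10 for Blimp-1. Leaving out genes with a mean level under -1, 6 of 8 were at least 2-fold higher, with a median of 1.90. With the parental array in place of GFP, 8 of 14 were higher and 1 lower, with a median of 1.78.

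Of 24 imprinted genes compared, 6 were at least 2-fold higher and 1 lower, against 11.45% and 4.21% of all genes, with a median difference of 0.11. Nanos3 against Nanos2 had 7 of 22 higher. Igf2, the growth factor of placenta and fetus, was at 3.71 with Blimp-1 and -0.09 with GFP, and at -2.45 to 1.54 on the others. That is 13.9-fold, and another probe differed by 3.45. Cdkn1c, an inhibitor of cyclin-dependent kinases that trophoblast giant cells use, was at 4.90 with Blimp-1 and 3.095 with GFP, and no other array exceeded 3.44. Peg3, a zinc finger gene expressed from the paternal allele, was at 0.58 and -1.56. Ascl2, Usp29 and Mirg made up the 6, and Grb10, a growth inhibitor, was the lower gene at 1.76 against 3.00.

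Among the 12 genes named as highest, Mogat2 and Sct, which are outside these lists, differed most, ahead of Krt7. Mogat2, an enzyme of triglyceride synthesis, was at 1.76 with Blimp-1 and -3.22 with GFP, a 31.6-fold difference (limma SE 2.05, limma adjusted p 1.00). It was also at 0.70 on both the Nanos2 and the Nanos3 array. Sct, which encodes the hormone secretin, was at 5.36 with Blimp-1 and 0.65 with GFP, and at -0.43 to 2.48 on the others (26.1-fold, limma SE 1.40, limma adjusted p 0.667). Septin5, Igfbp6, Gpat3 and Krtdap, which encode a septin of the cytoskeleton, a binding protein for insulin-like growth factors, an enzyme of glycerolipid synthesis and a keratinocyte protein, differed by 4.22, 4.17, 4.16 and 4.08.

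Septin5, Gpat3 and Krtdap each had another detected probe, which differed by 3.71, 4.12 and 4.11. Slc23a3, Cd209b, Pianp and Amy2a4 were not well above background with GFP, and were at least 19.6-fold, 18.5-fold, 16.6-fold and 16.2-fold higher with Blimp-1. With normexp background correction these 4 were 5.30-fold, 5.75-fold, 4.20-fold and 5.37-fold higher, Gata2 was 7.58-fold and Mogat2 11.9-fold. Cd209b, Pianp and Amy2a4 were well above background on the Blimp-1 array alone of the 8, and Amy2a4 is 1 of several near-identical amylase copies. The Pianp spot was uneven, with a pixel SD of 0.655 of its mean, against a median of 0.149 for spots of similar brightness, and Cd209b and Amy2a4 had 0.246 and 0.211. Of the 45 genes seen on the Blimp-1 array alone with a level above -2, 30 had a spot with a pixel SD over 0.5 of the mean, against 1.68% of all spots of that brightness. Slc23a3, related to transporters of vitamin C, was also detected on the Prdm14 array, at -2.58.

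The genes furthest below GFP differed less. Only 1 gene was at least 8-fold lower, against 90 higher; it was Lce1c, a gene of the skin barrier that was detected on the GFP array alone, and it was chosen here after its value was seen. Among the genes named as lowest, Ntn1, which encodes the guidance protein netrin-1, was at -3.91 and not well above background with Blimp-1 and at -1.15 with GFP, at least 5.78-fold lower. The Nanos3 array had -3.86, so the order of those 2 arrays was not measured. Its other probe differed by -0.45. Nefl, a neurofilament gene, was at -0.42 with Blimp-1 and 1.88 with GFP, and its other probe differed by -2.56. Aff1, an elongation factor gene, differed by -2.44, but of its other 2 probes 1 differed by -1.90 and 1 by 1.64, so its direction depends on the probe.

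Of the remaining 9, Frmd4a, Rassf9, Pcyt1b, Dmtn, Jade2, Gja1 and Armcx1 had differences of -2.26 to -1.97, and another probe of Jade2 differed by -0.98. Slc6a15 and Slc5a1 were not well above background with Blimp-1 and were at least 4.23-fold and at least 4.06-fold lower. Slc5a1 was well above background on 2 of the 8 arrays only, so its place below the others was not measured. With normexp background correction Ntn1, Rassf9, Slc6a15 and Slc5a1 were under 2-fold apart, at -0.80, -0.77, -0.64 and -0.57. Gja1, the gap junction gene for connexin 43, was at -0.56 with Blimp-1 and 1.41 with GFP, and at 1.40 to 2.24 on the 6 others. The Blimp-1 array stood apart here from 7 arrays that lay close together. Armcx1, a mitochondrial protein gene, was at 0.85 with Blimp-1 and 2.81 with GFP, and no other array was under 1.74.

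Naive pluripotency genes split. Of 26 measured, 5 were at least 2-fold lower with Blimp-1 (4.21% of all genes were) and 2 higher, with a median difference of -0.27 that lay within the spread of the other pairs (root mean square 0.63). Tbx3, which sustains self-renewal, was at 2.14 with Blimp-1 and 3.95 with GFP. Eras, a Ras-like gene of ESCs, was at 0.12 and 1.68, Klf4 at 3.52 and 4.92, the Nodal coreceptor gene Tdgf1 at 2.19 and 3.53, and Nanog at 3.79 and 4.82. Only Eras and Tdgf1 of these were below all 7 other arrays, whose lowest values were 0.59 and 3.53.

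For Tbx3, Klf4 and Nanog the Nanos3 array was lower than the Blimp-1 array, at 0.18, 2.29 and 2.29. Esrrb, an orphan receptor of the naive network, was at 4.95 with Blimp-1 and 5.62 with GFP, under 2-fold apart. The 2 higher genes were above all 7 others. Dppa3, a maternal and germline protein that guards DNA methylation, was at 4.27 with Blimp-1 and 2.47 with GFP, although the parental array had 4.23. Klf2 was at 6.96 and 5.91, against 5.05 to 6.43 on the 6 others, but its other probe differed by -0.31, so its direction depends on the probe.

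Of 14 genes of the primed epiblast compared, 5 were at least 2-fold lower and 1 higher, against 4.21% and 11.45% of all genes, with a median of -0.57 against a spread of 0.50. With normexp background correction 1 was lower and 1 higher. Prdm14 against the parental line had 6 of 14 lower, with a median of -0.78. Zic2 was at -3.39 with Blimp-1 and -1.998 with GFP and was below all 7 other arrays. With normexp background correction Zic2 differed by only -0.26, under 2-fold. The de novo methyltransferase gene Dnmt3b was at 2.68 and 3.92, the epiblast factor gene Otx2 at -1.28 and -0.16, Lin28b at -0.48 and 0.55, and Foxd3 at 0.23 and 1.25. These 4 lay within the range of the others. Lef1 was the higher gene, at 0.35 with Blimp-1 and -0.93 with GFP. Of 14 DNA methylation genes 3 were lower and 0 higher, against 4.21% and 11.45% of all genes. The 3 were Dnmt3b, Tet2 and the cytidine deaminase gene Apobec1, at -2.86 against -0.94 by 1 probe and 0.46 higher by its other probe. The list median of -0.45 lay within the spread of the other pairs (root mean square 0.67). With normexp background correction 2 of the 14 were lower and 0 higher. With the parental array in place of GFP 4 of these genes were higher and 1 lower, so the direction of the list depends on the array Blimp-1 is set against.

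PGC genes address the role of Blimp-1 at the origin of the germ line. Of 16 genes 6 were at least 2-fold higher with Blimp-1 and 2 lower, against 11.45% and 4.21% of all genes, and the median was 0.05. The 6 were 4 with the median over the probes of a gene and 3 with normexp background correction. Nanos3, an RNA-binding protein that PGCs need to survive, was at -0.33 with Blimp-1 and -3.19 with GFP, a difference of 2.86. It was not above all 7 arrays: it was at 2.66 on the array of forced Nanos3 and at -2.48 to -0.72 on the 5 others. Dppa3, Tfap2c, Klf2 and Cxcr4, the receptor that guides migrating PGCs, were among the 6, Klf2 by 1 of its 2 probes, and Cxcr4 was at -2.57 against -4.51. Dnd1, a partner of Nanos proteins, was at 1.92 with Blimp-1 and 0.90 with GFP. The array of forced Dnd had 1.43 and the Nanos3 array 1.20, and whether this probe reads the Dnd construct was not tested. With normexp background correction Dnd1 differed by 0.82, under 2-fold.

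The 2 lower genes were Prdm1 and Alpl, the alkaline phosphatase of PGCs and ESCs, at 2.02 with Blimp-1 and 3.49 with GFP. Kit, the receptor for stem cell factor, differed by -0.36. Of 23 later germline genes compared, 5 were higher and 1 lower, against 11.45% and 4.21% of all genes. Their median of 0.33 lay within the spread of the other pairs (root mean square 0.47). With normexp background correction 1 was higher and 0 lower. At mean levels of at least -1, 1 of 12 was higher and 1 lower. Ddx4, the gene for Vasa, differed by 0.17 and Dazl by 0.60. Stra8, the retinoic acid target of meiotic entry, was at -1.08 with Blimp-1 and 0.08 with GFP. Tex101 and Taf7l, at 0.94 against -0.25 and at -1.27 against -2.50, were above all 7 others. With normexp background correction these 2 genes differed by 0.998 and 0.93, under 2-fold.

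**Figure D4:**
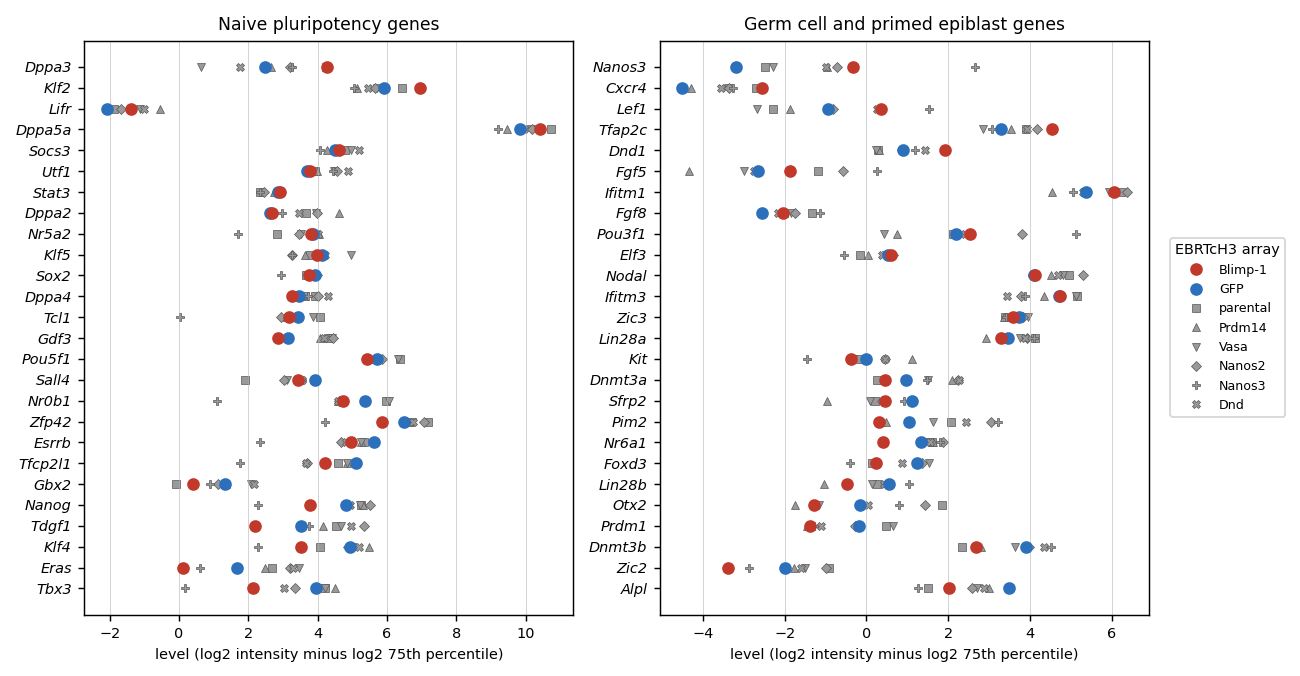
Levels (log2, horizontal axes) of naive pluripotency genes (left) and of germ cell and primed epiblast genes (right) on the Blimp-1 array (red), the GFP array (blue) and the 6 other EBRTcH3 arrays (grey), ordered by the Blimp-1 minus GFP difference. Dppa3 and Klf2 lie right of all other arrays, Eras and Tdgf1 left of all, and Nanog, Klf4 and Tbx3 lie between the Nanos3 array and the rest.

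Somatic programs were not uniformly low. Of 16 mesoderm and streak genes 4 were at least 2-fold higher and 0 lower, against 11.45% and 4.21% of all genes, with a median of 0.61. Eomes, a T-box factor shared by streak and trophoblast, was at -0.92 against -3.37, and Wnt3 at -1.89 against -3.89. Cdx2 and Hand1, which are also in the trophectoderm list, made up the 4. Wnt3 was higher still on the Nanos2 and Nanos3 arrays, at -1.74 and 0.97. Nanos3 against Nanos2 had 6 of 17 higher and 2 lower, with a median of 0.55. At mean levels of at least -1 only 1 gene of the list could be compared. The streak gene T was not well above background on either array. Of 14 Hox genes compared 6 were higher and 0 lower, against 11.45% and 4.21% of all genes. Their median was 0.86 against a spread of 0.38. Hoxb4, Hoxa2, Hoxd4 and Hoxa9 were dim with GFP and had bounds of 1.60 to 2.12 on the log2 scale. They stood at -3.18 to -2.69 with Blimp-1 and at -7.09 to -4.79 with GFP, so their mean levels were under -3. In that range the median difference of genes well above background on both arrays was 0.74. These Hox genes, dim with GFP, are not among those genes. With the parental array in place of GFP no Hox gene was higher and 2 were lower.

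Endoderm genes went both ways, with 6 of 15 higher and 2 lower, against 11.45% and 4.21% of all genes. At mean levels of at least -1, 0 were higher and 2 lower, and Prdm14 against the parental line had 8 of 14 higher, with a median of 1.12. Foxa2 was at -1.86 with Blimp-1 and at least 7.74-fold above a dim GFP value, or 2.73-fold with normexp background correction. Amn, a membrane protein of visceral endoderm, was at 0.06 with Blimp-1 and -2.38 with GFP. The laminin genes Lama1 and Lamc1 were lower, at -2.39 against 0.46 and at 2.74 against 4.74. Col4a1, which encodes collagen IV, was at -0.63 with Blimp-1 and -2.38 with GFP. BMP targets had 4 of 11 higher and 0 lower, against 11.45% and 4.21% of all genes, with a median of 0.59 against a spread of 0.29. The 4 were Gata2, also in the trophectoderm list, Msx2, Hey1 and Smad6, an inhibitor of the pathway, at -0.54 against -2.18. Id1, Id2 and Id3, the usual immediate targets, were not among the 4. Msx2 was at -1.52 with Blimp-1 and higher on the Nanos3 array, at -1.21. At mean levels of at least -1, 1 of 6 BMP targets was higher, with a median of 0.37. With the parental array in place of GFP 4 were higher and 2 lower.

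Of 20 genes that Blimp-1 is known to repress in lymphocytes, 11 could be compared, 0 were at least 2-fold lower and 1 was higher, with a median of 0.04. With 4.21% of all genes lower, 0 of 11 lies close to the share over all genes. Myc differed by -0.77. Pax5 and Ciita were not well above background on either array, so a lower level of them could not be measured. Of 16 plasma cell and unfolded protein response genes 1 was higher and 0 lower, against 11.45% and 4.21% of all genes. The higher gene was the elongation factor gene Ell2, at 0.49 against -1.21, and another probe of Ell2 differed by 0.37. Of 15 cofactor and Prdm family genes 3 were higher and 1 lower, against 11.45% and 4.21% of all genes. Their median of -0.20 lay within the spread of the other pairs (root mean square 0.29). With normexp background correction 1 was higher and 0 lower. Tle3, a Groucho-family corepressor, was at 3.35 with Blimp-1 and 1.86 with GFP, while its other probe differed by -0.16, and Prmt5 was at 2.23 and 2.57. Of 25 Polycomb genes 3 were higher, Cbx8 and Phf19 among them, and Phc1 was lower, shares close to the 11.45% and 4.21% of all genes. Cbx8, a chromodomain subunit, was at -1.09 with Blimp-1 and -4.15 with GFP and was above all 7 other arrays.

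**Figure D5:**
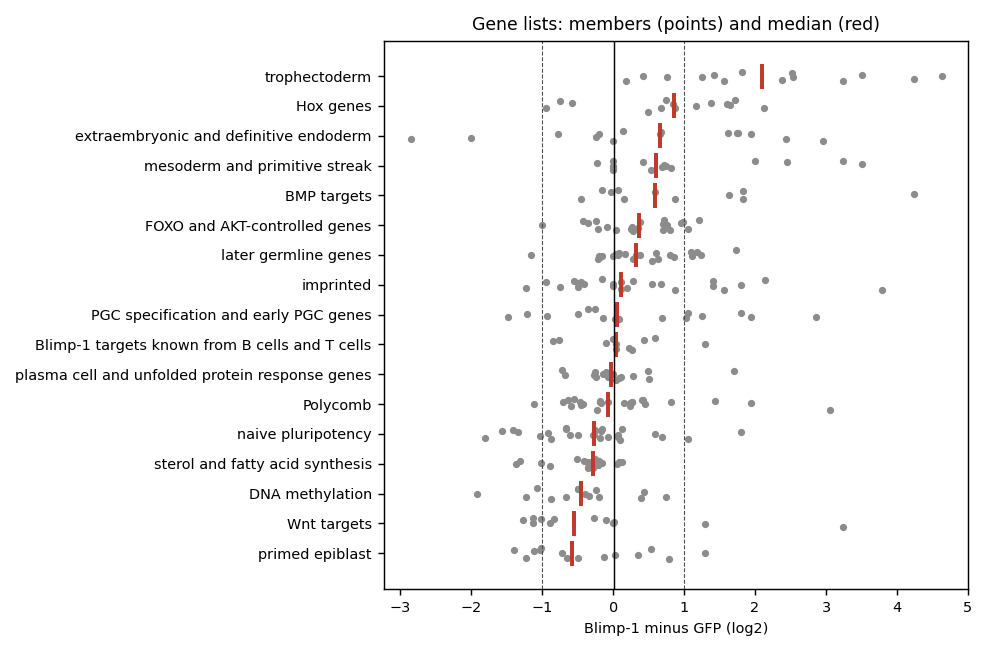
Blimp-1 minus GFP difference (log2, horizontal axis) of each compared member (grey points, vertical jitter within a row only for display) of the gene lists named on the vertical axis, with the list median (red) and the median of all genes (black line at 0.01). The trophectoderm median is 2.10, the primed epiblast median -0.57, and the median of genes known as Blimp-1 targets in lymphocytes 0.04.

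The promoters of the genes were read for the GAAAG-type site. The RefSeq windows of 250 bases before to 50 after the start site (GRCm38.p6, the first listed window of each gene) were searched for AGTGAAAG and AGCGAAAG on both strands. Of all 27025 windows 507 held a match (1.88%), and of 11164 windows of genes compared 196 did (1.76%). Among genes at least 2-fold lower with Blimp-1, 15 of 490 windows had a match (3.06%), and among those also below all 7 other arrays 7 of 99 (7.07%). Among genes at least 2-fold higher 13 of 1085 did (1.20%). Across the 6 other same-slide pairs the share among genes at least 2-fold higher or lower was 1.02% to 2.58%. That range stands beside the 3.06% and 1.20%. No set below all other arrays was counted for those pairs, so the 7.07% has no like value among them. Under the other scalings the share among lower genes below all 7 arrays was 3.98% to 8.06%. These are counts of letters in small sets, with no test, and a match is not a binding site.

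A match from each of the 7 windows among the lower genes is shown, because these are the letters behind that share. Each line gives up to 10 bases on either side of the match, which is in capitals, on the strand of the gene, 5′ to 3′. The window of Ttc12 holds 2 matches, of which 1 is shown. The 7 matches shown lie before the start site, and these genes were chosen after their values were seen.
Elac2 (chr11:64978903-64978930, plus strand, GRCm38.p6): gacgctctagCTTTCGCTtactctacgt
Inppl1 (chr7:101838454-101838476, minus strand, GRCm38.p6): accagAGCGAAAGttctctccca
Net1 (chr13:3918402-3918429, minus strand, GRCm38.p6): ctgccctgcaAGTGAAAGttctagtgaa
Plekha3 (chr2:76675268-76675295, plus strand, GRCm38.p6): tcatccaggaAGTGAAAGcgacgtcggg
Sowahb (chr5:93045135-93045162, minus strand, GRCm38.p6): atcccgggaaCTTTCGCTgcggggactc
Ttc12 (chr9:49486322-49486349, minus strand, GRCm38.p6): agtggaagggCTTTCACTgacgttgctt
Zbtb18 (chr1:177442158-177442185, plus strand, GRCm38.p6): gggcccgccgCTTTCGCTcaatcgctga
In Elac2, Sowahb and Zbtb18 the match is AGCGAAAG on the opposite strand, in Inppl1 it is AGCGAAAG on the strand of the gene, in Net1 and Plekha3 AGTGAAAG on the strand of the gene, and in Ttc12 AGTGAAAG on the opposite strand. The differences of these genes were modest, from -1.48 for Ttc12 to -1.10 for Inppl1. Sowahb was not well above background with Blimp-1. Its difference of -1.23 is therefore a bound, and its place below the other arrays rests on a dim reading. Elac2, a tRNA-processing enzyme gene, was at 3.23 with Blimp-1 and 4.35 with GFP. Inppl1, an inositol phosphatase gene, was at 1.37 and 2.47, and Zbtb18, a zinc finger repressor gene, at -1.75 and -0.59.

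The genes that separated Blimp-1 from GFP were set against arrays that the comparison did not use, uncultured PGCs of embryonic day E11.5 and another ESC line, 1 array each. Of genes at least 2-fold higher with Blimp-1, 58.4% were also at least 2-fold higher in PGCs than in the ESC line, against 28.9% of all genes compared. Of genes at least 2-fold lower, 67.9% were lower in PGCs, against 19.7%. With a mean level of at least -1 these shares were 62.6% and 79.1%, against 24.2% and 22.3%. Both comparisons set a dimmer array against a brighter one. The 75th percentile lay at an intensity of 206 for PGCs and 764 for the ESC line. It lay at 195 with Blimp-1 and 408 with GFP. What brightness adds to these shares was not tested. Pairs without Blimp-1 gave shares of this size too, with a parental array (195) dimmer than those of Prdm14 (465) and Vasa (315). Of genes lower with Prdm14 than in the parental line 54.6% were higher in PGCs, and of genes higher with Vasa than in the parental line 74.6% were lower in PGCs. Among single genes, Gata2 was at 0.45 in PGCs and -1.80 in the ESC line, and Mogat2 at 4.96 and 1.503, whereas Krt7 was at 1.09 and 2.60 and Hand1 at -5.58 and -2.48.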

How the data were processed

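Arrays were scanned in 1 colour and processed with Agilent Feature Extraction 10.7.3.1, per the submitters' processing notes; the design was annotated on mm9, per the file headers. The deposited intensity of each spot (processed signal) is background-subtracted and detrended within the array, per the file headers, and not normalized between arrays. The authors' deposited value table also holds intensities, linear and uncentred, and was an alternative. After removal of outlier spots and averaging of repeats, the level is log2 of the intensity over the array's 75th percentile of non-control spots. Of 41174 probes, 27584 were named by RefSeq accession, 5493 by symbol and 635 by synonym, and 7462 kept the file's name. Each of 27352 genes was represented by its brightest probe on average across the 22 arrays.

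A dim side was set to the higher of its own level and the lowest level well above background on its array. Genes dim on both sides (10825) were not compared, and 1139 whose bound was under 1-fold were counted with a difference of 0. The limma fit (limma 3.58.1, R 4.3.3, two-sided, Benjamini-Hochberg) used 8 arrays with slide as a block and 4 residual degrees of freedom, and was tested on simulated data. It treats constructs as repeats, so its p-values measure the spread between arrays and not between cultures, and the number of arrays limits precision. Genes named are the 12 highest and 12 lowest at least 2-fold from GFP and outside the other 7 arrays, up to 4 of each of 35 lists, and 20 fixed genes. The rule passes over accessions and clone names. Members and lists were chosen with earlier results of these data known. Alternatives were other scalings, filters, thresholds and reference arrays. Some list members are not reported here by name.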

Additional observations from a re-analysis of the deposited data

How the results depend on the processing

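The count of genes at least 2-fold apart (2589) was 1449 with normexp background correction, 11073 with no filter on dim genes, 391 at 4-fold, 4338 with the parental array in place of GFP and 909 among genes of mean level at least -1, an alternative chosen after seeing the data. It was 2163 to 2682 under the other settings. The share on the higher side, 73.1%, was 57% after quantile normalization (1455 higher, 1099 lower), 89.1% with no filter (9868 higher, 1205 lower), 91% at 4-fold, 52% against the parental array (2254 higher, 2084 lower), 86.4% against the mean of the other 7 arrays and 53.6% at mean levels of at least -1. Genes outside the other 7 arrays (1272) numbered 824 with normexp, 2718 with no filter, 819 among genes above background on both arrays, 314 at 4-fold and 275 at mean levels of at least -1. Differences beyond every other same-slide difference (1436) numbered 950, 3322, 922 and 331 under normexp, no filter, both arrays above background and the level limit. limma passed 151 genes after quantile normalization and 154 with no slide block, against 0 in the remaining 13 fits, each of which left out 1 array or changed 1 setting, or was the fit reported. The cause of these shifts was not tested.

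List medians mostly moved by less than their spread over the other same-slide pairs (253 of 280 alternatives). With the parental array in place of GFP, added after seeing the data, the medians were 1.25 for construct genes, 0.19 for Hox, -0.51 for neural, -0.15 for unfolded protein response, -0.15 for interferon, 0.30 for DNA methylation, 0.19 for ERK-responsive, 0.31 for Wnt, -0.028 for FOXO, 0.67 for p53, 1.62 for two-cell-like, 0.59 for mesenchymal, 0.031 for sterol, -0.54 for apoptosis, -0.57 for fibroblast and 0.62 for blood genes. Of these interferon, FOXO, sterol, DNA methylation, Wnt, ERK-responsive and fibroblast genes changed sign. Against the mean of the other 7 arrays the medians were 0.40 for PGC genes, -0.088 for interferon, with the sign changed, and 1.15 for BMP targets. At mean levels of at least -1 they were 0.17 for construct genes, -0.92 for neural, -0.78 for endoderm and -0.27 for blood genes, both with the sign changed. With normexp they were 0.42 for lymphocyte targets and -0.41 for sterol genes, and with the median over the probes of a gene 0.00 for endoderm and -0.12 for sterol genes. The trophectoderm median stayed between 1.51 and 2.33 under all 8 alternatives.

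Against the mean of the other 7 arrays, named genes with a changed sign were Stra8 (0.019), Ncam1 (0.65), Lamc1 (0.053), Tap1 (-0.10), Tet2 (0.99), Zeb1 (0.62) and Bcl2 (-0.53). With normexp 34 of 111 named genes at least 2-fold apart were under 2-fold, and 39 of 110 against the mean of the other 7 arrays. Over the median of their probes Aff1 (1.27) and Bmf (0.94) changed sign. No paired analysis was possible because each group has 1 array and the labels give no replicate numbers. Weak signals also limit these arrays: 45.9% of probes on the Blimp-1 array were not well above background.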

Other observations

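Krt19, the gene of keratin 19, outside the trophectoderm list, was at 1.60 with Blimp-1 and -0.62 with GFP, and the Prdm14 array had 2.22, with the Nanos3 array higher still. Cell cycle genes included 4 of 32 at least 2-fold higher and 2 lower, with a median of -0.08, shares close to the 11.45% and 4.21% of all genes. The inhibitor genes Cdkn1c, Cdkn2b and Cdkn2c and the cyclin gene Ccne2, at -0.68 against -2.24, were higher, Cdkn2b at 0.99 against -0.30 and Cdkn2c at -1.89 against -3.19. Ccnd1, the gene for cyclin D1, was at 0.67 with Blimp-1 and 1.79 with GFP, and below all 7 other arrays. Spry2, a feedback inhibitor of ERK signalling, was at 2.05 and 3.11, also below all 7. Cdh1, the gene for E-cadherin, was at 2.02 with Blimp-1 and 3.76 with GFP, within the range of the other arrays, which began at 1.88. Of 21 sterol and fatty acid synthesis genes 3 were at least 2-fold lower and 0 higher, against 4.21% and 11.45% of all genes, and Fasn was at 5.33 with Blimp-1 and 6.34 with GFP. With the parental array in place of GFP, 3 were higher and 1 lower.

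The notch target Hes5 was at -0.73 with Blimp-1 and -3.40 with GFP, and above all 7 other arrays, of which the parental array was nearest at -1.13. Itgam, a myeloid integrin gene, was well above background on the Blimp-1 array alone, at -1.11 against a dim -5.11 with GFP.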
